A study of Mus musculus with 6 samples.

Results

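AP-1 and immediate early genes were followed in injured mouse kidney through 10 genes, *Fos*, *Fosb*, *Jun*, *Junb*, *Atf3*, *Egr1*, *Klf4*, *Klf6*, *Myc* and *Ier3*. They were chosen by symbol from the deposited table, which has 21367 genes. Each of the 10 had 1 row, and all 10 passed the filter on low counts that left 13036 genes for testing. The study used 7-week-old C57BL/6 mice, of which 3 were *Ptpn6*+/mev and 3 were wild-type littermates. The *Ptpn6*+/mev animals are heterozygous for viable motheaten, a germline splice-site mutation in the gene of the phosphatase SHP-1 that every cell type carries, and wild-type littermates lack it. All 6 animals had the right kidney removed and the left renal pedicle clamped for 34 min, and the left kidney was taken after 24 h of reperfusion. Each library was made from poly-A RNA of left kidney tissue of a single mouse. Kidneys without ischemia were not analysed here, so the levels below are those of the injured organ and give no induction by injury.

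Immediate early genes are switched on by growth factors, cytokines and cell stress without the need for new protein synthesis. Kinases of the MAP kinase cascade activate transcription factors that already sit in the cell, and the resulting transcripts are short-lived. FOS and JUN proteins join through a leucine zipper to form AP-1, a dimer that binds DNA at the TPA response element (TRE), and ATF3 is a related leucine zipper protein of the stress response. EGR1, KLF4 and KLF6 are zinc finger transcription factors, MYC is a helix-loop-helix zipper factor of cell growth, and IER3 is a stress-induced regulator of cell survival. In the kidney this class is known as an early response of the tubule to ischemia. SHP-1 removes phosphate from tyrosines of receptors and kinases, several of which signal to the MAP kinases.

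Total counts ranged from 10271594 to 12361750 per library, and the counts of all 10 genes were whole numbers. *Ptpn6* itself was measured at 11.85, 14.7 and 13.6 FPKM in *Ptpn6*+/mev kidneys and at 17.5, 10.9 and 15.4 FPKM in wild-type kidneys, with a log2 fold change of -0.19 (SE 0.165, adjusted p = 0.715 by edgeR's quasi-likelihood test). With a kidney left out, the log2 fold change of *Ptpn6* ran from -0.33 to -0.05. The former was without wild-type replicate 2 (adjusted p = 0.212 by the same test) and the latter without wild-type replicate 1. Since the allele alters splicing, the level of total transcript neither checks nor contradicts the labels. The libraries had the markers of kidney, with a summed FPKM of 1585 to 1874 for 10 proximal tubule genes and of 2082 to 2984 for 8 distal nephron genes. Wild-type replicate 2 stood apart in other markers, with a summed endothelial level of 84.6 FPKM against 180.8 to 195.1 in the other 5 kidneys and a summed fibroblast level of 97.6 FPKM against 308.8 to 386.7. Summed red blood cell genes were at 1633 FPKM in *Ptpn6*+/mev replicate 1 and 1298 FPKM in wild-type replicate 1, against 502.3 to 644.8 FPKM in the other 4 kidneys, and the part of this in the results was not tested. Fold changes, counts of calls, list medians and AP-1 sums were therefore also computed without wild-type replicate 2. For the 10 genes the log2 fold changes then ran from -0.29 (*Junb*) to 0.39 (*Klf6*), with a median of 0.10. In whole tissue, fewer cells of a type and less RNA per cell cannot be told apart.

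The 10 genes have few exons. In the GENCODE M21 annotation of GRCm38, 9 of the 10 have at most 4 exons, a property shared by 21.0% of 13006 tested genes with an annotated 3′ UTR. Their transcripts had a median length of 2683.5 bases beside 3161 in tested genes, with *Egr1*, *Klf6*, *Fosb* and *Jun* above that median. *Jun* (chromosome 4, 95049034 to 95052222, minus strand) and *Junb* (chromosome 8, 84974484 to 84978718, minus strand) consist of 1 exon, and *Klf4* (chromosome 4, 55527143 to 55532466, minus strand) has the most, with 5. *Fos* (chromosome 12, 85473890 to 85477273, plus strand), *Fosb* (chromosome 7, 19302696 to 19310051, minus strand), *Klf6* (chromosome 13, 5861482 to 5870394, plus strand) and *Atf3* (chromosome 1, 191170296 to 191218039, minus strand) each have 4 exons. *Myc* (chromosome 15, 61985391 to 61990374, plus strand) has 3 exons, *Ier3* (chromosome 17, 35821684 to 35822923, plus strand) has 2, and *Egr1* also has 2. The antisense gene *Junos* overlaps the 5′ end of *Jun*, and since the strand setting of the counting is not given in the sources used here, reads of *Junos* and *Jun* cannot be told apart. *Prdx2* overlaps the annotated span of *Junb* but not its main transcript, which begins at 84978718 and ends at 84976910.

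AU-rich elements in the 3′ UTR, built from the pentamer ATTTA, are the known instability signal of many immediate early transcripts. Of 8 members whose sequence was read, 5 (*Fos*, *Jun*, *Atf3*, *Klf6* and *Ier3*) held at least 3 pentamers in the 3′ UTR, as did 37.7% of tested genes. The median was 2.89 pentamers per kb in the 8 members and 1.28 in tested genes, at median 3′ UTR lengths of 1084 and 1162 bases. *Klf6* had 7 pentamers in 3111 bases and *Ier3* had 5 in only 613 bases. Windows of 30 bases are shown for the genes in which 2 pentamers lie within that distance, as DNA of the sense strand from GENCODE M21 transcripts, with the pentamers in capitals. They start at base 632, 1028 and 166 of the 3′ UTR of *Fos*, *Jun* and *Ier3*.
Fos: aacgtttttattgtgttttcaATTTATTTA
Jun: gtgatcATTTAtaatcataggaaagATTTA
Ier3: ctccgtgtctaattaatATTTAtgtATTTA
The overlapping pentamers of *Fos* form the nonamer ATTTATTTA, whereas those of *Jun* and *Ier3* are separate.

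Promoter sequence was at hand for 8 members in RefSeq (GRCm38.p6). The cAMP response element (CRE) core TGACG, searched on both strands in the 250 bases before the start, was found in 5 of them (*Fos*, *Fosb*, *Junb*, *Atf3* and *Klf4*), against 17.9% of 32536 promoters. An 8-base form of the AP-1 site, TGACNTCA on both strands, was found in *Jun* and *Klf6* and in 7.43% of promoters. The canonical TRE, TGANTCA on both strands, was in none of the 8 and in 6.73% of promoters, and TATAAA on the sense strand was in *Fos* only and in 7.55%. The GC box GGGCGG on both strands was in 7 of 8 and in 33.0% of promoters, and the CArG box of serum response factor was in none of 8 and in 1.48%. These are letter matches within a short window and not measured binding. The 150 bases before the start of *Fos*, *Jun* and *Klf6* are shown, since *Fos* carries TGACG at positions -129 and -66 from the start and *Jun* and *Klf6* share the same 8 bases, TGACATCA, at -45 and -119. Capitals mark TGACG, TGACATCA and TATAAA, and each sequence runs 5′ to 3′ toward the start, from chr12:85473740-85473889 (plus strand), chr4:95052223-95052372 (minus strand) and chr13:5861339-5861488 (plus strand) in that order.
Fos: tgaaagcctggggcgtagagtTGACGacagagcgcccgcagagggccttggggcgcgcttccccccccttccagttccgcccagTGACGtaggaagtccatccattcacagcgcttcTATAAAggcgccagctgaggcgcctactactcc
Jun: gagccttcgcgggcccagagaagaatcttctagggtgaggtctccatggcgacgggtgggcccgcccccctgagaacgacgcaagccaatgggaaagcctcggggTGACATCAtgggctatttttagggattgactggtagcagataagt
Klf6: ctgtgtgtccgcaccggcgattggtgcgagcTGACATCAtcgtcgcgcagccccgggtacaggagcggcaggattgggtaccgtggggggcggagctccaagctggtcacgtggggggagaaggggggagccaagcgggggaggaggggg

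Levels are given in FPKM, fragments scaled to transcript length and library size, which allows genes to be compared per length. Across the 6 kidneys, *Junb* (mean 73.2 FPKM) and *Ier3* (mean 73.0 FPKM) were the most abundant, and both exceeded 90.1% of the tested genes. *Jun* followed at 43.1 FPKM, *Klf6* at 34.3 FPKM and *Myc* at 27.0 FPKM. *Egr1* was at 17.6 FPKM, and *Atf3*, *Klf4* and *Fos* were at 11.6, 7.76 and 5.47 FPKM. *Fosb* was the lowest at 0.475 FPKM, above only 3.29% of tested genes. The ranges over the kidneys separated *Ier3* from *Jun*, *Myc* from *Egr1*, *Egr1* from *Atf3* and *Fos* from *Fosb*. Other neighbours in this order had overlapping ranges, as for *Junb* and *Ier3*, *Jun* and *Klf6*, and *Klf6* and *Myc*, although *Klf6* was above *Myc* within each of the 6 kidneys.

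**Figure D1:**
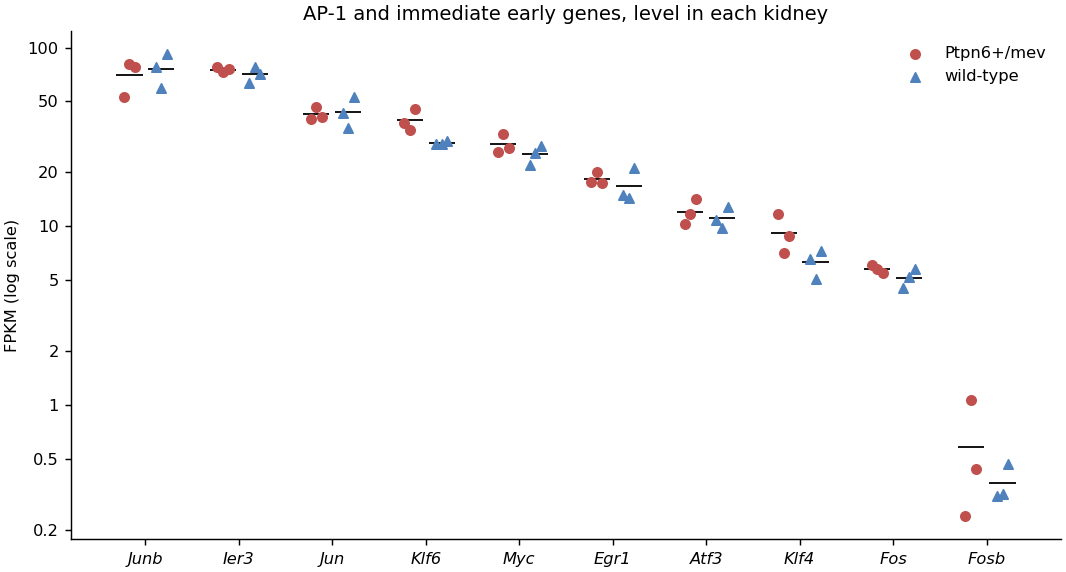
Level of the 10 genes in each kidney, in FPKM on a log axis, with circles for *Ptpn6*+/mev, triangles for wild-type kidneys and a line at the mean of each group (n = 3). Means run from 73.2 FPKM for *Junb* to 0.475 FPKM for *Fosb*, and only *Klf6* has groups that do not overlap.

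Whether SHP-1 insufficiency changes these genes after ischemia-reperfusion was asked by comparing the genotypes. None of the 10 genes passed an adjusted p of 0.05 with edgeR's quasi-likelihood test, in a comparison that called 18 genes, or 0.138% of those tested. At an unadjusted p under 0.05, 1 of the 10 was past the threshold, *Klf6*, where 12.2% of tested genes were. With edgeR's exact test, which called 2.99% of tested genes, with DESeq2, which called 2.97%, and with the main test after wild-type replicate 2 was left out, which called 1.77%, the number of these genes called was again 0. Fold changes given without another test are edgeR's fit to scaled counts and need not equal the ratio of mean FPKM. The log2 fold change was positive for 8 genes and negative for 2, with a median of 0.086 beside -0.002 over all genes tested. The 95% interval lay within a 2-fold change in either direction for 9 genes, with fold bounds from 0.658 to 1.90, and *Fosb* was the exception. The groups did not overlap in FPKM for 1 of the 10 genes, *Klf6*, against 20.4% of tested genes. With 3 kidneys a group, the exact permutation test cannot give a two-sided p below 0.1, and over the 10 genes its p for mean FPKM ran from 0.1 to 0.8 (0.667 to 0.8 after Benjamini-Hochberg adjustment).

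**Figure D2:**
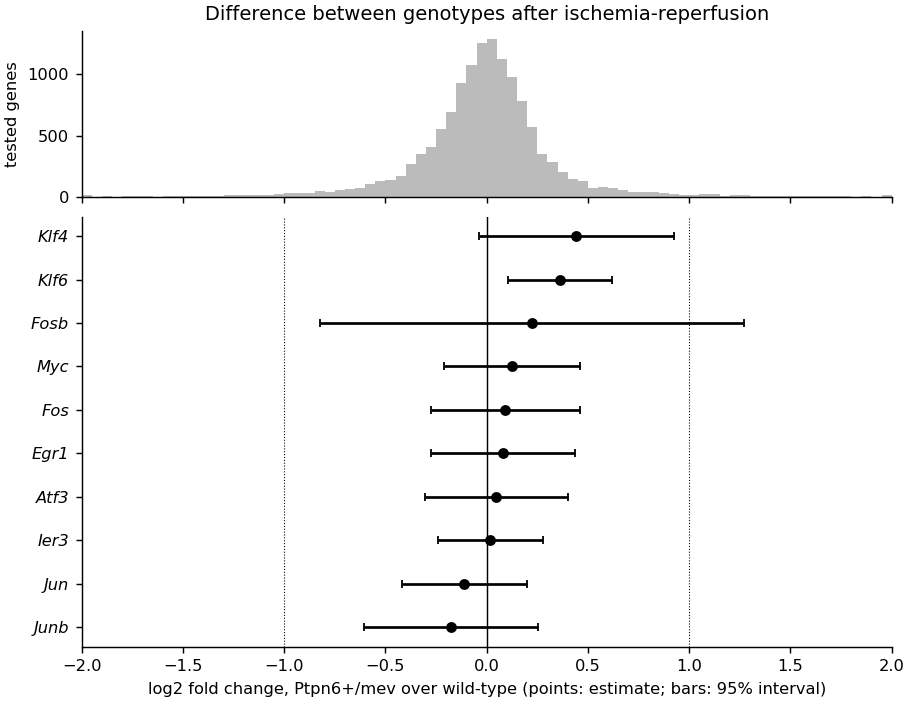
Log2 fold change of each gene in *Ptpn6*+/mev over wild-type kidneys with its 95% interval (below; edgeR, n = 3 a group), and the distribution over the 13036 tested genes, with values beyond 2 in either direction drawn at the edge (above). The dotted lines mark a 2-fold change, which only the interval of *Fosb* crosses, and only the interval of *Klf6* leaves out 0.

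By mean FPKM the FOS family members of the set were its least abundant genes, although *Klf4* (5.04 FPKM) was below *Fos* in wild-type replicate 2. *Fos*, the partner that gives AP-1 its strongest DNA binding with JUN, was measured at 6.08, 5.80 and 5.45 FPKM in *Ptpn6*+/mev kidneys and at 4.52, 5.21 and 5.74 FPKM in wild-type kidneys. *Ptpn6*+/mev replicate 1 was highest and wild-type replicate 1 lowest, and the groups overlapped through wild-type replicate 3. The means were 5.78 ± 0.316 and 5.16 ± 0.612 FPKM (SD, n = 3 each), and the fold change fitted to counts was 1.07 (95% interval 0.826 to 1.37). The fitted log2 fold change of 0.09 was smaller than its SE of 0.159, with an adjusted p of 0.882 by edgeR, and it was 0.0013 at the lowest with a kidney left out. Counts of 103 to 150 lay behind these values.

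*Fosb*, a close paralog of *Fos*, was near the floor of detection. It was measured at 0.240, 1.07 and 0.440 FPKM in *Ptpn6*+/mev kidneys and at 0.310, 0.320 and 0.470 FPKM in wild-type kidneys. The higher mean of the first group, 0.583 ± 0.433 against 0.367 ± 0.0896 FPKM (SD, n = 3 each), came from replicate 2, while replicate 1 was the lowest of all 6. The log2 fold change was 0.23 (SE 0.454, adjusted p = 0.903 by edgeR), and without *Ptpn6*+/mev replicate 2 it was -0.23. With 9 to 25 counts, counting error alone reaches 33.3% of the lowest value, and a change of up to 2.42-fold lay within the 95% interval. Counts were 9, 25 and 15 in *Ptpn6*+/mev kidneys and 12, 10 and 22 in wild-type kidneys. *Ptpn6*+/mev replicate 2 thus had 1.07 FPKM at 25 counts, while wild-type replicate 3 had 0.470 FPKM at 22 counts. FPKM and counts of this gene were therefore not in the same proportion in each kidney. The SD of FPKM in *Ptpn6*+/mev kidneys was 74.3% of the mean, and the sources of this spread were not tested.

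The JUN family members of the set, *Jun* and *Junb*, were abundant and differed more between kidneys of 1 genotype than between genotypes. *Jun*, which can form AP-1 alone or with FOS, was measured at 39.6, 46.6 and 40.9 FPKM in *Ptpn6*+/mev kidneys and at 43.0, 35.3 and 53.0 FPKM in wild-type kidneys. Both the lowest and the highest value were in wild-type kidneys, in replicates 2 and 3. The means were 42.4 ± 3.71 and 43.8 ± 8.90 FPKM (SD, n = 3 each). The log2 fold change of -0.11 (SE 0.134, adjusted p = 0.816 by edgeR) was within the spread, and without wild-type replicate 3 it was 0.03.

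*Junb*, a JUN protein that often counters *Jun* in driving proliferation, was measured at 52.9, 80.6 and 77.4 FPKM in *Ptpn6*+/mev kidneys and at 77.6, 59.0 and 91.6 FPKM in wild-type kidneys. Each group held 1 low kidney, replicate 1 of *Ptpn6*+/mev and replicate 2 of wild-type. The means were 70.3 ± 15.1 and 76.1 ± 16.3 FPKM (SD, n = 3 each). The fold change fitted to counts was 0.885 (95% interval 0.658 to 1.19). The log2 fold change was -0.18 (SE 0.186, adjusted p = 0.775 by edgeR). The SD was 21.5% of the mean in both groups, and counting error at 987 to 2055 counts was 2.21% to 3.18%. The sources of the spread between mice were not tested.

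AP-1 dimers draw on all JUN and FOS proteins, so the transcripts of the other 3 subunits, *Jund*, *Fosl1* and *Fosl2*, were set beside *Jun*, *Junb*, *Fos* and *Fosb*. *Jun*, *Junb* and *Jund* summed to 144.8, 172.9 and 165.1 FPKM in *Ptpn6*+/mev kidneys and to 159.1, 134.4 and 185.6 FPKM in wild-type kidneys. *Fos*, *Fosb*, *Fosl1* and *Fosl2* summed to 42.3, 43.1 and 43.2 FPKM and to 33.3, 36.9 and 42.9 FPKM. In every kidney JUN transcripts exceeded FOS transcripts, by 3.42 to 4.77 times. Among the other subunits, *Jund* was at 52.2, 45.7 and 46.8 FPKM in *Ptpn6*+/mev kidneys and at 38.45, 40.1 and 40.95 FPKM in wild-type kidneys, and *Fosl1* at 25.2, 25.7 and 23.5 and at 17.6, 21.4 and 20.6 FPKM. For both, all *Ptpn6*+/mev kidneys were above all wild-type kidneys, a lack of overlap that 20.4% of tested genes showed in 1 direction or the other, and neither passed the test (adjusted p = 0.434 and 0.464 by edgeR). The JUN to FOS ratio was 3.75 ± 0.301 in *Ptpn6*+/mev and 4.25 ± 0.564 in wild-type kidneys (SD, n = 3 each; exact two-sided permutation p = 0.3). The overlap of the groups rested on wild-type replicate 2, at 3.65, since the other wild-type kidneys had 4.77 and 4.33 and all *Ptpn6*+/mev kidneys 3.42 to 4.01. Without that kidney the wild-type mean was 4.55 and the groups did not overlap, with an exact permutation p of 0.2, the smallest this test allows for 3 kidneys against 2. This comparison was added after the data were seen, and the share of tested genes that then lack overlap was not computed.

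Within the summed AP-1 transcripts *Junb* took 28.3% to 40.3%, *Jun* 19.6% to 23.2% and *Jund*, the subunit that is usually present without a stimulus, 17.9% to 27.9%. *Fosl1*, a FOS protein that outlasts *Fos* after a stimulus, took 9.04% to 13.5% and *Fosl2* 4.89% to 7.00%. *Fos* took 2.35% to 3.25% and *Fosb* at most 0.495%, so most FOS family transcript at 24 h was *Fosl1* and *Fosl2*. Over the 10 sums, ratios and shares compared, exact two-sided permutation p ran from 0.2 to 1.0 (0.5 to 1.0 after Benjamini-Hochberg adjustment). Without wild-type replicate 2 the groups also did not overlap in the shares of *Jun*, *Junb*, *Jund*, *Fos* and *Fosl1*, which are parts of 1 sum. Each of these shares then had an exact permutation p of 0.2, the smallest for 3 kidneys against 2. The shares of *Fosb* and *Fosl2* still overlapped. These comparisons were added after the data were seen. How many tested genes lack overlap with that kidney left out was not computed, so these shares are not read as a difference between genotypes.

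**Figure D3:**
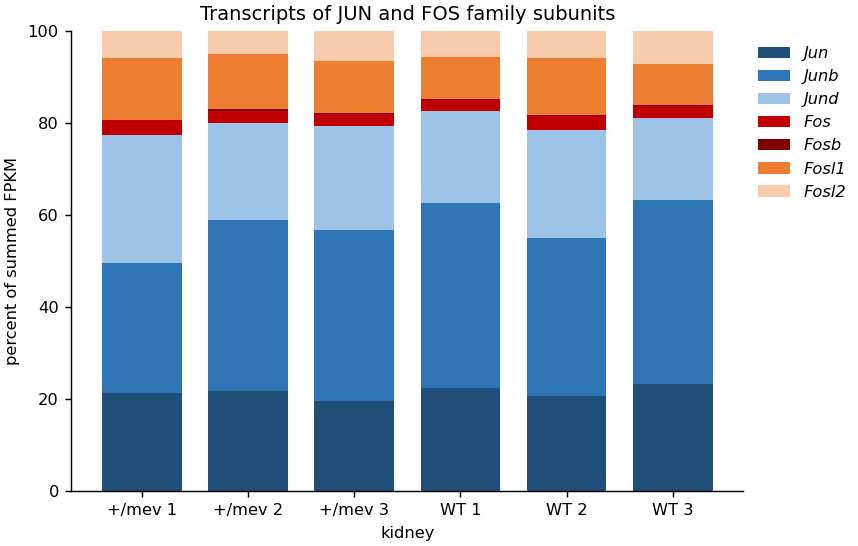
Share of each JUN subunit (blue) and FOS subunit (red and orange) in the summed FPKM of the 7 AP-1 genes, in percent, for each kidney (WT, wild-type). JUN subunits make up most of each bar in every kidney, and *Fos* and *Fosb* together are a thin band.

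*Atf3*, a leucine zipper protein that mostly represses its targets under stress, was measured at 10.3, 11.8 and 14.2 FPKM in *Ptpn6*+/mev kidneys and at 10.8, 9.79 and 12.8 FPKM in wild-type kidneys. The groups interleaved, with wild-type replicate 2 lowest and *Ptpn6*+/mev replicate 3 highest. The means were 12.1 ± 1.94 and 11.1 ± 1.55 FPKM (SD, n = 3 each), with a log2 fold change of 0.05 (SE 0.153, adjusted p = 0.940 by edgeR). Without *Ptpn6*+/mev replicate 3 the log2 fold change was -0.08.

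*Egr1*, the serum-induced zinc finger factor whose rise is a common read-out of MAP kinase activity, was measured at 17.6, 20.2 and 17.4 FPKM in *Ptpn6*+/mev kidneys. Wild-type kidneys had 15.1 (replicate 1), 14.4 and 21.2 FPKM. Wild-type replicate 3 was the highest of all 6 kidneys, and the other 2 kidneys of that group were the lowest. The means were 18.4 ± 1.56 and 16.9 ± 3.76 FPKM (SD, n = 3 each), with a log2 fold change of 0.08 (SE 0.155, adjusted p = 0.896 by edgeR). Without wild-type replicate 3 the log2 fold change was 0.28, and without replicate 1 or 2 of that group it was at or just under 0.

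*Klf6* came nearest to a difference. This Krüppel-like factor, known as an injury-induced gene of epithelium and stroma, was measured at 38.0, 34.75 and 45.4 FPKM in *Ptpn6*+/mev kidneys and at 28.7, 28.8 and 30.1 FPKM in wild-type kidneys. All 3 *Ptpn6*+/mev kidneys were above all 3 wild-type kidneys, and the wild-type values lay close together. The means were 39.4 ± 5.47 and 29.2 ± 0.772 FPKM (SD, n = 3 each). The fold change fitted to counts was 1.28 (95% interval 1.08 to 1.53). The unadjusted p was 0.0116 for a log2 fold change of 0.36 (SE 0.111), and the adjusted p over all genes by edgeR was 0.238, above the threshold of 0.05. The exact permutation p of 0.1 was the smallest that this design allows. Leaving out single kidneys gave log2 fold changes of 0.25 to 0.44, and across the 15 alternatives the adjusted p ran from 0.123 to 0.619.

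*Klf4*, a factor of epithelial differentiation, had the largest fold change of the 10 genes with all kidneys in the fit, but it kept this rank neither without *Ptpn6*+/mev replicate 1 nor without wild-type replicate 2. It was measured at 11.8, 7.10 and 8.82 FPKM in *Ptpn6*+/mev kidneys and at 6.56, 5.04 and 7.29 FPKM in wild-type kidneys. *Ptpn6*+/mev replicate 1 stood highest, and replicate 2 of that group lay below wild-type replicate 3, so that the groups overlapped. The means were 9.23 ± 2.36 and 6.30 ± 1.15 FPKM (SD, n = 3 each). The fold change fitted to counts was 1.36 (95% interval 0.973 to 1.90). The log2 fold change of 0.44 (SE 0.209) had an unadjusted p of 0.0672 and an adjusted p of 0.447 by edgeR. It was 0.22 without *Ptpn6*+/mev replicate 1, below the values of *Klf6* and *Fosb* in the same fit, 0.34 without wild-type replicate 2, below *Klf6*, and up to 0.61 with another kidney left out.

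*Myc* was measured at 26.05, 32.7 and 27.4 FPKM in *Ptpn6*+/mev kidneys and at 22.04, 25.7 and 28.1 FPKM in wild-type kidneys. *Ptpn6*+/mev replicate 2 was highest, wild-type replicate 1 lowest, and the groups overlapped. The means were 28.7 ± 3.52 and 25.3 ± 3.04 FPKM (SD, n = 3 each), with a log2 fold change of 0.13 (SE 0.145, 95% interval -0.21 to 0.46, adjusted p = 0.807 by edgeR).

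*Ier3* was abundant and differed little between genotypes. It was measured at 77.4, 72.8 and 75.7 FPKM in *Ptpn6*+/mev kidneys and at 63.4, 77.5 and 71.3 FPKM in wild-type kidneys. Wild-type kidneys held both the lowest and the highest value. The means were 75.3 ± 2.32 and 70.7 ± 7.05 FPKM (SD, n = 3 each). The fold change fitted to counts was 1.01, with a 95% interval of 0.846 to 1.21. The log2 fold change was 0.02 (SE 0.112, adjusted p = 0.974 by edgeR).

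The genes did not rank the kidneys in 1 order. In FPKM, wild-type replicate 1 held the lowest value of 4 genes (*Fos*, *Klf6*, *Myc* and *Ier3*), and wild-type replicate 2 that of another 4 (*Jun*, *Atf3*, *Egr1* and *Klf4*). Wild-type replicate 3 held the highest value of *Jun*, *Junb* and *Egr1*. Each *Ptpn6*+/mev kidney held the highest value of 2 genes. On log2 CPM, counts scaled to library size, the median of the 10 genes relative to their own means was -0.20, -0.15 and 0.11 in wild-type replicates 1 to 3 and -0.04, 0.08 and 0.02 in *Ptpn6*+/mev replicates 1 to 3. The wild-type kidneys thus spanned a wider range than the *Ptpn6*+/mev kidneys and enclosed it, a comparison that was not tested. Within groups the SD of log2 CPM was 0.54 for *Fosb*, 0.31 for *Klf4* and 0.30 for *Junb* and 0.14 for each of *Fos*, *Klf6* and *Ier3*, beside a median of 0.19 over tested genes.

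**Figure D4:**
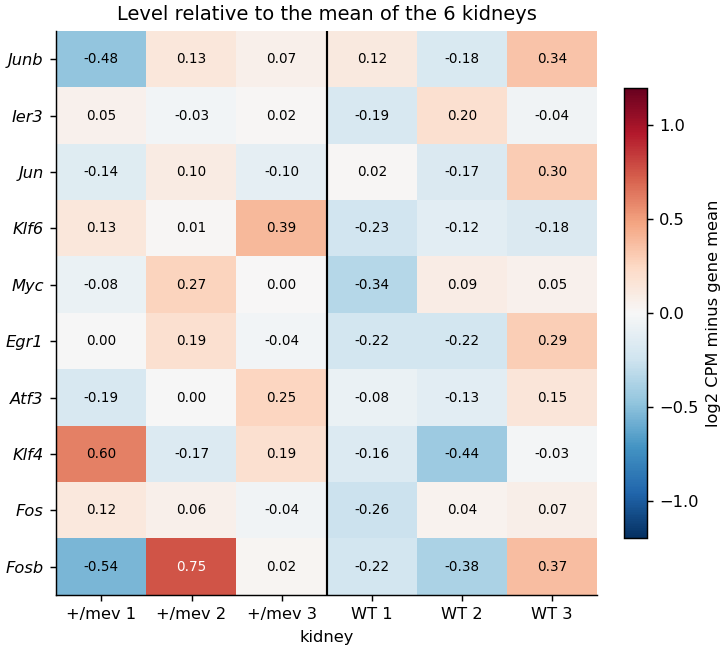
Level of each gene in each kidney as log2 CPM minus the mean of that gene over the 6 kidneys (color scale and printed values; +/mev, *Ptpn6*+/mev; WT, wild-type). *Klf6* is the only row with all 3 *Ptpn6*+/mev kidneys above all 3 wild-type kidneys.

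Among genes around this set, none of 9 pathway lists held a gene called by the quasi-likelihood test, which called 0.138% of all tested genes. Counts below are of genes at an unadjusted p under 0.05, a level passed by 12.2% of tested genes. Of 10 tested genes for other AP-1 subunits and small MAF proteins, 1 passed upward, *Jdp2* with a log2 fold change of 0.63, and the list's median was 0.14. *Jund* (0.20), *Mafg* (0.10) and *Fosl1* (0.25) were its most abundant genes. Of 9 other ATF and CREB family genes 1 passed, *Creb3* (0.32), with a median of 0.17, and *Atf4* and *Atf5*, the factors of the integrated stress response, had log2 fold changes of 0.17 and 0.34. Batf2 and Batf3 were below the filter.

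Of 28 tested immediate early genes outside the set, 5 passed upward and 3 downward, with a median of 0.05. The 5 were *Klf2*, *Plk3*, *Sgk1*, *Per1* and *Nfkbia*, and the 3 were *Ier5l*, *Zfp36l1* and *Socs3*. *Plk3*, a stress-induced kinase, had the highest fold change of the list. It was measured at 48.15, 23.55 and 39.0 FPKM in *Ptpn6*+/mev kidneys and at 14.9, 15.0 and 18.01 FPKM in wild-type kidneys, with a log2 fold change of 1.14 (SE 0.234, adjusted p = 0.104 by edgeR's quasi-likelihood test). It was called by edgeR's exact test (adjusted p = 6.49e-04) and by DESeq2 (adjusted p = 5.14e-04), and leaving out wild-type replicate 2 gave an adjusted p of 0.0567 in the quasi-likelihood test. Without *Ptpn6*+/mev replicate 2 the quasi-likelihood test called 1 gene of this list. DESeq2 also called *Nfkbia* (adjusted p = 0.0419), which the exact test did not (adjusted p = 0.0527). *Sgk1* (0.56), *Rhob* (0.27) and *Mcl1* (0.09) were the most abundant, and Egr3, Egr4, Nr4a3 and Npas4 were below the filter.

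Upstream, the 23 tested kinases and serum response factor partners had log2 fold changes from -0.25 to 0.13 and a median of 0.03. The kinases MEK2 (*Map2k2*, 0.00) and ERK1 (*Mapk3*, 0.13) were among the most abundant, and 1 gene, *Map2k3* (-0.20), passed. Of 16 genes that feed back on the cascade, MAP kinase phosphatases and Sprouty proteins, 1 passed, *Dusp1*, the phosphatase of JNK and p38. *Dusp1* was at 46.8, 26.6 and 46.9 FPKM in *Ptpn6*+/mev kidneys and at 19.9, 18.1 and 27.2 FPKM in wild-type kidneys, with a log2 fold change of 0.82 and an adjusted p of 0.205 by the quasi-likelihood test, 0.0326 by the exact test and 0.0318 by DESeq2. *Dusp14* (0.33) and *Dusp6* (-0.14) did not pass.

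Of 18 tested genes known as AP-1 targets, 4 passed upward and 3 downward, with a median of 0.06. *Mmp10*, a matrix protease, had a log2 fold change of 1.98 at no more than 2.20 FPKM, and *Ccnd1*, the G1 cyclin, one of 0.54. *Plaur* had 0.31 and *Krt18* 0.55. *Hmox1*, the heme-degrading enzyme, was at 409.1, 350.5 and 361.3 FPKM in *Ptpn6*+/mev kidneys and at 496.4, 466.2 and 552.2 FPKM in wild-type kidneys. Its log2 fold change was -0.50 (SE 0.091, adjusted p = 0.0873 by the quasi-likelihood test, 0.00695 by the exact test, and 0.0303 by the former once wild-type replicate 2 was left out). *Spp1* had -0.38 and *Lif* -1.26, and *Tnfrsf12a*, also among the most abundant of the list, had -0.03. *Mmp10*, *Hmox1*, *Ccnd1* and *Lif* were called by the exact test, the same 4 and *Krt18* by DESeq2, and *Mmp10*, *Hmox1*, *Ccnd1* and *Krt18* by the quasi-likelihood test once wild-type replicate 2 was left out.

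Around *Myc*, 2 of 10 partners and antagonists passed upward, the antagonists *Mxd3* (1.80) and *Mxd4* (0.52), while the partner *Max* had a log2 fold change of 0.12 and *Mlx* one of 0.02. *Mxd3*, at 3 to 36 counts, was called by the exact test (adjusted p = 0.0105) but not by DESeq2 (adjusted p = 0.0689). *Mxd4* was called by both (adjusted p = 0.0164 by the exact test and 0.00982 by DESeq2). Of 18 known MYC targets 2 passed, *Odc1* (0.49), the rate-limiting enzyme of polyamine synthesis, and *Ppat* (0.29). *Ldha* had -0.08 and *Npm1* 0.19, and the median was 0.08. Of 8 heat shock genes, which can rise with handling of tissue, 1 passed upward (*Hspb1*, 0.47) and 1 downward (*Hspa1b*, -0.29), with a median of -0.03. *Hspb1* was called by the exact test (adjusted p = 0.0466) and by DESeq2 (adjusted p = 0.0304). *Hspd1* had -0.04 and *Hsp90aa1* 0.00, a value of either sign under other scalings.

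**Figure D5:**
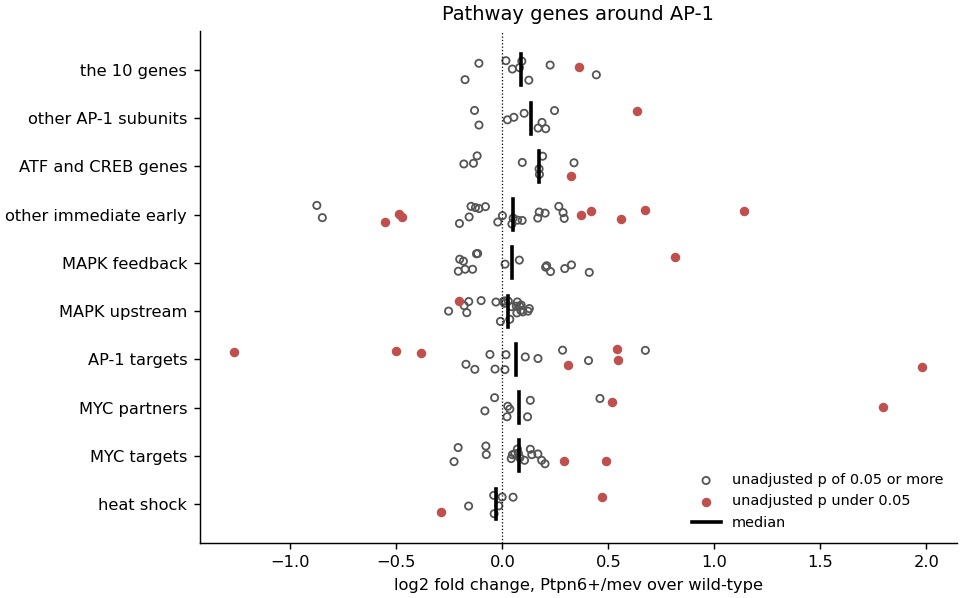
Log2 fold change in *Ptpn6*+/mev over wild-type kidneys (edgeR, n = 3 a group) of each tested gene of the 10 lists, with filled points at an unadjusted p under 0.05 and a bar at the median. *Klf6* is the only filled point of the set itself, and the medians of all lists lie between -0.03 and 0.17.

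Leaving out wild-type replicate 2 moved the medians of the 9 pathway lists to between -0.04 and 0.15, and 17.3% of tested genes were then at an unadjusted p under 0.05. Upward counts became 3 of 10 for other AP-1 subunits, 2 of 9 for ATF and CREB genes, 3 of 16 for feedback genes, 4 of 18 for MYC targets and 2 of 23 for the upstream kinases and partners, with none of these lists holding a gene that passed downward, *Map2k3* included. AP-1 targets then had 4 upward and 2 downward, and the counts of the other 3 lists were as before. Cell type markers were read beside these values. None of the 9 marker lists held a gene called by the quasi-likelihood test, while edgeR's exact test and DESeq2 both called *Cubn*, *Slc22a6* and *Vcam1*. With wild-type replicate 2 left out, the quasi-likelihood test called *Lrp2*, *Cubn*, *Slc22a6*, *Krt20*, *Pdgfra* and *Dcn*. Of 10 proximal tubule markers, 5 passed an unadjusted p of 0.05 downward (*Lrp2*, *Cubn*, *Slc22a6*, *Slc7a13* and *Hnf4a*), with a median log2 fold change of -0.40, and of 8 tubular injury markers 3 passed upward and 1 downward, with a median of 0.12. Once wild-type replicate 2 was left out these medians were -0.46 and 0.31, and that of 7 fibroblast markers moved from -0.09 to -0.54, with 6 of the 7 passing downward. The medians of endothelial (0.18), macrophage (0.18), neutrophil (0.02) and distal nephron markers (-0.18) turned sign, to -0.14, -0.08, -0.13 and 0.23. Summed macrophage markers were at 180.1 to 285.8 FPKM in *Ptpn6*+/mev and 116.3 to 258.1 FPKM in wild-type kidneys, and summed neutrophil markers at 25.1 to 58.95 and 26.8 to 45.7 FPKM. Wild-type replicate 2 had the lowest macrophage, endothelial and fibroblast sums and also the lowest FPKM of *Jun*, *Atf3*, *Egr1* and *Klf4*, but the highest of *Ier3*. On log2 CPM, *Atf3* was instead lowest in *Ptpn6*+/mev replicate 1, at 4.34 against 4.41 in wild-type replicate 2. *Egr1* was then at 5.72 in both wild-type replicates 1 and 2. The part of these cell types in the levels of the 10 genes was not tested.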

How the data were processed

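RNA from 6 kidneys, 3 *Ptpn6*+/mev and 3 wild-type, was sequenced by the authors (TruSeq RNA kit, Illumina HiSeq), aligned to GRCm38.p5 with TopHat and summarised with Cufflinks; the submitters' processing notes also name Bowtie2, RSEM and TopHat2 2.0.3.12. The deposited table gives, per gene and library, the authors' estimated counts and FPKM. Estimated counts were rounded to whole numbers. FPKM were used for levels. Groups came from the sample titles.

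Tests of all genes used the edgeR package (4.0.16; R 4.3.3; TMM, filterByExpr, quasi-likelihood F-test, Benjamini-Hochberg adjustment over 13036 genes, called at an adjusted p under 0.05). The SE is the log2 fold change over the square root of F. log2 CPM used a prior count of 2. Mean FPKM were compared by exact permutation (scipy 1.17.1, Python 3.11.15), and figures used matplotlib 3.10.9. Total counts ranged from 10271594 to 12361750; counting error covers counting only. Of 15 alternatives, 4 replaced the test: edgeR's exact test, the DESeq2 1.42.0 Wald test, and limma 3.58.1 on log2(FPKM + 1) and log2(FPKM + 0.1). Others were 2 further normalizations, no filter, a filter of 10 counts in each library, a replicate block, and omission of single libraries. Nothing in the sources pairs the libraries. AP-1 sums, list medians and unadjusted counts without wild-type replicate 2 were added after the data were seen.

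The members and lists were chosen with earlier results of these data known. Named were the 10 genes, *Ptpn6*, in each pathway list the genes called and then the most abundant until 3 were named, and the 5 genes most like *Fos* and *Myc*. Values of 1 gene that the rule would name are left out. *Mmp10*, *Plk3*, *Jdp2*, *Klf2*, *Per1*, *Nfkbia*, *Ier5l*, *Zfp36l1*, *Socs3*, *Map2k3*, *Ccnd1*, *Plaur*, *Krt18*, *Lif*, *Mxd3*, *Ppat*, *Hspa1b*, the marker genes and those below the filter were named after their values were seen. Mrtfa and Mrtfb were looked up by older symbols, *Mkl1* and *Mkl2*. Authors' comparisons were not used. Per the study's methods each library is a single mouse.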

Additional observations from a re-analysis of the deposited data

How the results depend on the processing

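None of the 10 genes was called under any of the 15 alternatives, and the median of their log2 fold changes stayed between 0.004 and 0.17. *Fos*, *Klf4*, *Klf6*, *Myc* (higher in *Ptpn6*+/mev kidneys) and *Junb* (lower) kept their direction under all of them, though with a kidney left out *Fos* was as low as 0.0013 and *Myc* 0.006, *Junb* was at -0.008 at its nearest to 0, and *Klf4* ran from 0.22 to 0.61. With single kidneys left out, values ran from -0.23 to 0.53 for *Fosb*, -0.21 to 0.026 for *Jun*, -0.08 to 0.15 for *Atf3*, -0.0028 to 0.28 for *Egr1* and -0.061 to 0.13 for *Ier3*. *Fosb* could not be fitted with at least 10 counts in every library.

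The number of genes called, 18, was 387 with DESeq2, 390 with the exact test, 8 with limma on log2(FPKM + 0.1), 52 without a filter, 1 with the replicate number as a block, and 1 to 231 with a kidney left out, the highest without wild-type replicate 2. The block called 0 of the 10 genes; deviations of libraries with the same number correlated at -0.14, -0.18 and -0.13, and no library correlated best with its own number. The causes of these shifts were not tested. Genes called per list, 0 by the quasi-likelihood test, became 2 with DESeq2 and 1 with the exact test for other immediate early genes (0 to 1 with a kidney left out), 1 and 1 for MAP kinase feedback, 5 and 4 for AP-1 targets (1 under each limma setting, 0 to 4 with a kidney left out), 1 and 2 for MYC partners and 1 and 1 for heat shock.

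*Hsp90aa1*, at 0.00, was at 0.006 with upper quartile normalization, 0.11 under each limma setting, 0.00054 without a filter and 0.0037 with the block. *Tnfrsf12a*, at -0.03, was at 0.035 under each limma setting. The limma settings shifted the median of all genes by 0.062 and 0.076. With a kidney left out, *Hsp90aa1* ran from -0.091 to 0.13, *Hspd1* from -0.10 to 0.07, *Map2k2* from -0.049 to 0.044 and *Mlx* from -0.017 to 0.067. In the same fits *Spp1* ran from -0.50 to -0.21, nearest to 0 without wild-type replicate 2. *Atf5* ran from 0.20 to 0.44, *Mafg* from 0.029 to 0.16 and *Fosl1* from 0.16 to 0.345. *Dusp14* ran from 0.19 to 0.445, *Dusp6* from -0.18 to -0.076 and *Max* from 0.065 to 0.16. *Npm1* ran from 0.11 to 0.27, *Ldha* from -0.096 to -0.046 and *Tnfrsf12a* from -0.05 to -0.015. Of 390 fits of the 26 other named genes, 367 kept direction and side of the threshold and 9 passed it. Among the 10 genes depth was lowest for *Fosb*, at 9 to 25 counts.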

Other observations

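The 5 genes whose log2 CPM over the 6 kidneys followed that of *Fos* most closely, among 11844 genes with a mean of at least 1 FPKM, were *Taf4*, *Olfm1*, *Tuba4a*, *Asnsd1* and *Osr2*. Their root mean square difference from the *Fos* profile was 0.042 to 0.046, against a median of 0.212 over all genes compared. For *Myc* they were *Ythdf2* at 0.034 and *Anapc5*, *Tti2*, *Vrk2* and *Gemin8* at 0.069 to 0.074, against a median of 0.254. The 6 kidneys share their libraries across all genes, and none of the 10 immediate early genes could enter these lists. Each list holds the closest of 11844 genes over only 6 values, so close matches can arise by selection. Counts were 103 to 150 for *Fos*, with a counting error of 8.16% to 9.85%. They were 93 to 135 for *Osr2*, 44.0 to 77.9 for *Vrk2* and 71 to 106 for *Gemin8*. Shared regulation with *Fos* or *Myc* was not tested. With profiles on log2(FPKM + 1), an alternative chosen after the data were seen, 2 of the 5 were shared for *Fos* and 3 of the 5 for *Myc*.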
